A study of Mus musculus with 9 samples.

Results

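The genes described here are 10 genes of the contractile apparatus of smooth muscle and myofibroblasts: Acta2, Actg2, Myh11, Myl9, Tpm1, Tpm2, Cnn1, Tagln, Lmod1, and Des. They were chosen by name from the 43346 genes measured, without a cutoff on their values but with earlier results of these data known. They were measured by bulk RNA-Seq of lung fibroblasts isolated by flow cytometry from Col1a1-GFP mice, in which GFP marks cells with an active collagen I promoter. The sorted cells were GFP+, CD45-, CD31-, and EpCAM-. Of the libraries, 4 came from sham mice given saline into the trachea (aged sham, n = 4) and 5 from mice given bleomycin, a DNA-damaging drug that scars the lung (aged bleo, n = 5). The study's methods describe male mice on an FVB background. Both groups received a single dose, were studied on day 30, and carried the same reporter. The sample labels give their age both as 72 weeks and as 18 months. The reporter limits the sort to cells with collagen I promoter activity, so smooth muscle cells without it were outside the sort gate.

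Smooth muscle cells and myofibroblasts contract when myosin II filaments pull on actin filaments, a step that is switched on by phosphorylation of the myosin light chain. Actin filaments are strengthened by tropomyosin, and calponin and transgelin bind along them. Many of these genes are transcribed by serum response factor (SRF), which binds a short sequence called the CArG box together with its coactivators of the myocardin family. In the injured lung, alpha smooth muscle actin is the usual marker of the myofibroblast, while Myh11 and desmin mark differentiated smooth muscle.

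Library depth ran from 49921946 to 62370512 counts in aged sham and from 53833507 to 68260600 counts in aged bleo. The 10 genes together took 0.385% to 0.765% of all counts in aged sham and 0.378% to 0.466% in aged bleo. Col1a1, the gene of the reporter's promoter, had a mean level of 4154 CPM (counts scaled to library size) in aged sham and of 20853 CPM in the aged bleo libraries. The genes of the excluded markers averaged 87.0 and 65.0 CPM for Ptprc (CD45), 6.12 and 4.34 CPM for Pecam1 (CD31), and 0.593 and 0.668 CPM for Epcam. The summed level of 5 leukocyte genes was highest in aged sham 4 (440 CPM) and aged bleo 4 (679 CPM), against 127 to 243 CPM in the other aged sham libraries and 128 to 195 CPM in the other aged bleo libraries. Each library also has a deposited column name, apart from the replicate numbers used here. The deposited name ends in a number whose meaning is not given in the sources used here. That number is 4 in all the aged sham libraries and in aged bleo 4, and 5 or 6 in the other aged bleo libraries.

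RefSeq start sites and promoter sequences (GRCm38.p6) were found for 7 of the 10 genes, each from 250 bases before to 50 bases after the start. They were searched on both strands for the CArG box, for the CArG box with 1 of its inner A or T bases replaced by C or G, for CATTCC (bound by TEAD factors), and for TATAAA. The promoters of 4 genes are shown because they include the most abundant gene, Acta2, and genes that differed between the groups in either direction, and capitals mark both forms of the CArG box.

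Acta2 promoter, chr19:34255324-34255623, minus strand: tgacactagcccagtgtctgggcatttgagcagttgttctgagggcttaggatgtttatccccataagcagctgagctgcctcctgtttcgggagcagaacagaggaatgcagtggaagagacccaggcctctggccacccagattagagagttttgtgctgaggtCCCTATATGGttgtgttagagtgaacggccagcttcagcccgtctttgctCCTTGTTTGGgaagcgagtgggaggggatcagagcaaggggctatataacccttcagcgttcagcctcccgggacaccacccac
Myl9 promoter, chr2:156775214-156775513, plus strand: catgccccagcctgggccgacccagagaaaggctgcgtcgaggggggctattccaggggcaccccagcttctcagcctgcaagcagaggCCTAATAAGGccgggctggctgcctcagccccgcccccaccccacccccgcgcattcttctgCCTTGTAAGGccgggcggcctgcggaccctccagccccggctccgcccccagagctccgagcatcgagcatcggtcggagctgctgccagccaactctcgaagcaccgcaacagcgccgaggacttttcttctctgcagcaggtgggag
Cnn1 promoter, chr9:22099003-22099302, plus strand: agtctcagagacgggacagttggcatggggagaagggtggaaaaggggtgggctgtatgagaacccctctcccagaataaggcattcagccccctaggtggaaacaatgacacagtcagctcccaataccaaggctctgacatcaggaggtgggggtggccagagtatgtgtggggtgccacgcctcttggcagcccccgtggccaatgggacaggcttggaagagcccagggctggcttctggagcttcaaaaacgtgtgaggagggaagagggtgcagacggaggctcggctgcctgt
Tpm1 promoter, chr9:67049164-67049463, minus strand: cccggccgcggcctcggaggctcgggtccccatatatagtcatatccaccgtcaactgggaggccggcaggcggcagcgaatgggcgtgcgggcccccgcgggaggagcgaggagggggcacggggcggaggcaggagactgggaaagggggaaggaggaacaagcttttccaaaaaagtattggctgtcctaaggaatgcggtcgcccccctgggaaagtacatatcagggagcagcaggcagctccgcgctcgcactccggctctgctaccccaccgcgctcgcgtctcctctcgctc

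The Acta2 window held 2 CArG boxes with 1 replaced base, which begin at positions -84 and -34 from the start site. The Myl9 window held 1 intact CArG box at position -161 and 1 with a replaced base at position -99. No CArG box of either form was in the windows of Cnn1, Lmod1, Des, Tpm1, and Tpm2. Tagln, Myh11, and Actg2 were not matched. Among all 32851 promoters of the same length, 1.63% held an intact CArG box, 8.5% the form with a replaced base, and 9.98% either form. CATTCC was in the windows of Acta2, Lmod1, and Tpm1, against 14.7% of all promoters, and TATAAA was in none of the 7, against 13.6%. A match describes the letters only, and boxes outside these windows were not searched.

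In aged sham fibroblasts, Acta2 had the highest level per length of the 10 genes, with 428 ± 155 FPKM (fragments scaled to gene length and library size, SD, n = 4), and ranked 21 among all genes. Tagln followed with 205 ± 72.8 FPKM, Myl9 with 146 ± 40.0 FPKM, and Myh11 with 87.3 ± 24.3 FPKM. The order of these 4 genes was the same in 4 of 4 libraries, although the ranges of Tagln and Myl9, and of Myl9 and Myh11, overlapped between libraries. Tpm2 (43.6 ± 12.5 FPKM), Cnn1 (32.0 ± 13.7 FPKM), Actg2 (31.2 ± 12.2 FPKM), Des (26.1 ± 7.32 FPKM), and Tpm1 (23.6 ± 5.30 FPKM) each overlapped with the next gene in this order. Tpm2 was above Tpm1 in 4 of 4 libraries with no overlap, whereas Cnn1 was above Actg2, and Des above Tpm1, in only 2 of 4 libraries. Lmod1 was lowest, with 12.0 FPKM on average and between 8.48 and 15.2 FPKM in the 4 libraries.

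The order differed in aged bleo fibroblasts. Acta2 (292 ± 23.0 FPKM, n = 5), Tagln (160.2 ± 14.4 FPKM), and Myl9 (99.0 ± 13.8 FPKM) still came first, with no overlap between them. Tpm1 moved from rank 9 among the 10 genes to rank 4 with 46.4 ± 10.7 FPKM, and Myh11 from rank 4 to rank 6 with 39.7 ± 18.2 FPKM. The ranges of Tpm1, Tpm2 (42.5 ± 7.26 FPKM), Myh11, and Des (35.2 ± 2.70 FPKM) overlapped from one to the next. Actg2 (28.4 ± 4.64 FPKM), Cnn1 (16.7 ± 3.13 FPKM), and Lmod1 (6.28 ± 2.45 FPKM) came last. Among all genes, Acta2 ranked 36 and Myh11 ranked 442 in aged bleo, against 21 and 194 in aged sham.

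The comparison of aged bleo with aged sham asks how injury changed these genes in collagen-producing fibroblasts at a time of persistent fibrosis. A gene was called when its FDR was under 0.10 and its fold change exceeded 1.5 (edgeR's quasi-likelihood test, FDR adjusted by Benjamini-Hochberg over 16877 genes), and all 10 genes were tested. Myh11, Cnn1, Lmod1, and Myl9 fell, Tpm1 rose, and Acta2, Tagln, Actg2, Tpm2, and Des were not called. Of all genes tested, 12.3% were called higher and 11.5% lower, or 23.8% in either direction. The median log2 fold change was -0.48 for the 10 genes and 0.0064 for all genes tested, and 8 of 10 values were below 0. Without the threshold on fold change, Acta2 joined the 4 lower genes, where 21.4% of all genes were lower at an FDR under 0.10, and Des joined Tpm1, where 23.4% were higher. Fewer cells of a type and less RNA per cell cannot be told apart in bulk samples.

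**Figure D1:**
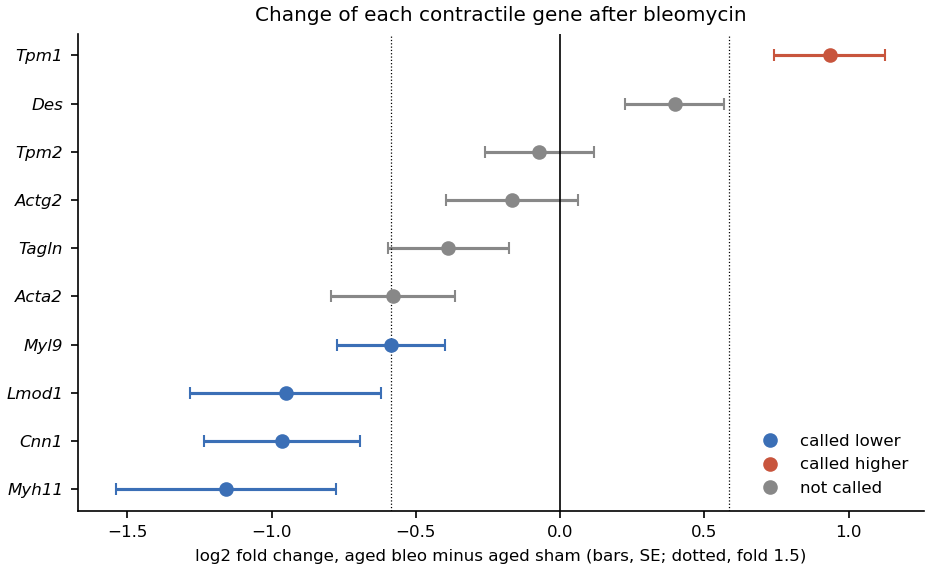
Log2 fold change of each of the 10 contractile genes, aged bleo minus aged sham, with its standard error (edgeR, 4 aged sham and 5 aged bleo libraries). Blue points were called lower, the red point higher, and grey points were not called. Dotted lines mark a fold change of 1.5, and Myl9 and Acta2 lie on either side of the left line.

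Among the actins, Acta2 (ENSMUSG00000035783, chromosome 19, 34241090 to 34255336, minus strand), which encodes alpha smooth muscle actin, was at 1319, 2146, 2538, and 1244 CPM in aged sham 1 to 4. It was at 1265, 1244, 1188, 1044, and 1323 CPM in aged bleo 1 to 5. Aged sham 2 and 3 stood well above the other 7 libraries, and aged sham 1 and 4 lay within the range of aged bleo. The mean was 1812 ± 634 CPM (SD, n = 4) against 1213 ± 106 CPM (n = 5), a log2 fold change of -0.58 (SE 0.22, edgeR FDR = 0.0629). Its fold size of 1.49 missed the threshold, and the gene was called lower when aged sham 1, aged sham 4, aged bleo 1, aged bleo 2, or aged bleo 5 was left out (log2 fold change from -0.72 to -0.59). Without aged sham 3 the log2 fold change was -0.37 (FDR = 0.191).

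Actg2 (ENSMUSG00000059430, chromosome 6, 83512905 to 83536265, minus strand), the gamma actin of enteric smooth muscle, was at 86.4, 119, 177, and 80.8 CPM in aged sham and at 105, 104, 95.5, 82.0, and 129 CPM in aged bleo. The groups overlapped, with the highest and the lowest value both in aged sham. The log2 fold change was -0.17 (SE 0.23, edgeR FDR = 0.603), and without aged sham 3 it was 0.12.

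Of the myosin genes, Myh11 (ENSMUSG00000018830, chromosome 16, 14194527 to 14291408, minus strand), the heavy chain of smooth muscle myosin, showed the largest change of the 10 genes in this fit. It was at 1319.7, 1454, 1810.3, and 923 CPM in aged sham 1 to 4 and at 748, 990.3, 655, 213, and 479 CPM in aged bleo 1 to 5. Only aged bleo 2 exceeded an aged sham library, aged sham 4, and aged bleo 4 was the lowest of all. Myh11 fell from 1377 ± 367 to 617 ± 292 CPM, a log2 fold change of -1.16 (SE 0.38, edgeR FDR = 0.0412) and a fold size of 2.23. Without aged bleo 4 the log2 fold change was -0.95 (FDR = 0.0223), and without aged sham 3 it was -0.998 and no longer passed the test (FDR = 0.104).

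Myl9 (ENSMUSG00000067818, chromosome 2, 156775420 to 156781658, plus strand), the regulatory light chain of the same motor, was at 349.6, 502, 478, and 281 CPM in aged sham and at 312, 286, 266, 203, and 275 CPM in aged bleo. Aged sham 4 lay among the aged bleo libraries, and the other 3 aged sham libraries were above all of them. Myl9 fell from 403 ± 105 to 268 ± 40.6 CPM (log2 fold change -0.59, SE 0.19, edgeR FDR = 0.0368). Its fold size barely passed the threshold of 1.5, and the call was lost without aged sham 2, aged sham 3, aged bleo 3, or aged bleo 4 (log2 fold change from -0.58 to -0.46). Myl9 is the gene with the intact CArG box shown above.

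The tropomyosin genes differed from each other. Tpm1 (ENSMUSG00000032366, chromosome 9, 67022590 to 67049406, minus strand), which encodes alpha tropomyosin in muscle and non-muscle isoforms, was at 324, 395, 457, and 283 CPM in aged sham and at 669, 515, 627, 764, and 911 CPM in aged bleo. Every aged bleo library was above every aged sham library, as for 16.1% of all genes tested. Tpm1 rose from 365 ± 77.0 to 697 ± 149 CPM (log2 fold change 0.93, SE 0.19, edgeR FDR = 0.00670), and with single libraries left out the log2 fold change was between 0.82 and 1.07. The counts are per gene, so its isoforms were not separated.

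Tpm2 (ENSMUSG00000028464, chromosome 4, 43514711 to 43523765, minus strand), which encodes beta tropomyosin, was at 251, 352, 389, and 213 CPM in aged sham and at 298, 238, 249.9, 301, and 346 CPM in aged bleo. The aged bleo libraries all lay within the aged sham range. The log2 fold change was -0.072 (SE 0.19, edgeR FDR = 0.797), and it was above 0 without aged sham 2 (0.0092) or aged sham 3 (0.083).

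**Figure D2:**
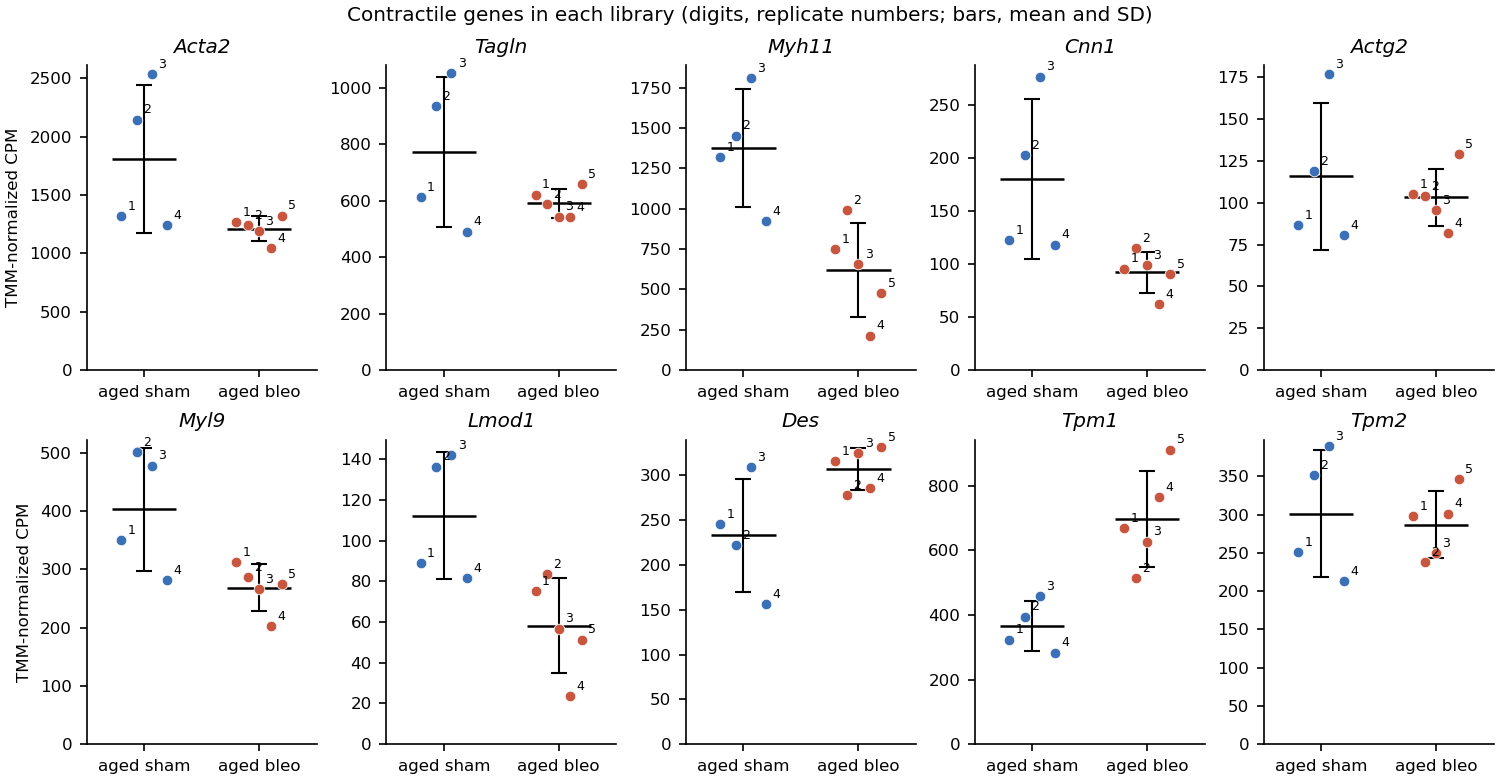
TMM-normalized CPM of the 10 contractile genes in each library, with the y axis of each panel starting at 0. Blue points are the 4 aged sham and red points the 5 aged bleo libraries, digits give the replicate number, and black bars give the mean and SD. Only Tpm1 and Cnn1 have groups that do not overlap, and aged sham 4 is the lowest aged sham library in every panel.

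Of the genes whose proteins bind along actin filaments, Cnn1 (ENSMUSG00000001349, chromosome 9, 22099281 to 22109630, plus strand) encodes calponin 1, which restrains the myosin ATPase in smooth muscle. It was at 123, 202, 276, and 118 CPM in aged sham and at 95.6, 115, 98.5, 61.8, and 90.0 CPM in aged bleo. Every aged bleo library was below every aged sham library, as for 16.1% of all genes tested, although aged bleo 2 and aged sham 4 lay close together. Cnn1 fell from 179.9 ± 75.1 to 92.1 ± 19.3 CPM (log2 fold change -0.96, SE 0.27, edgeR FDR = 0.0226). It was called lower with any 1 of the 9 libraries left out, with log2 fold changes from -1.12 to -0.68.

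Tagln (ENSMUSG00000032085, chromosome 9, 45929628 to 45936058, minus strand), which encodes transgelin (SM22), was at 612, 936, 1053, and 490.3 CPM in aged sham and at 622, 587, 544, 542, and 659 CPM in aged bleo. The aged bleo libraries fell within a narrow band that lay inside the aged sham range. The log2 fold change was -0.39 (SE 0.21, edgeR FDR = 0.180). In the GENCODE M21 transcripts, 58.3% of the 50-base stretches of Tagln are shared with Gm48529 and Pcsk7 on the opposite strand, and the library kit does not mark strand, so their reads cannot be told apart.

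Lmod1 (ENSMUSG00000048096, chromosome 1, 135324807 to 135368065, plus strand), which encodes leiomodin 1, an actin filament nucleator of smooth muscle, was at 89.0, 136, 142, and 81.7 CPM in aged sham. It was at 75.3, 83.6, 56.7, 23.6, and 51.3 CPM in aged bleo. Aged bleo 2 was the only aged bleo library above aged sham 4, and aged bleo 4 was again the lowest. Lmod1 fell from 112 ± 31.3 to 58.1 ± 23.3 CPM (log2 fold change -0.95, SE 0.33, edgeR FDR = 0.0502). The call was lost without aged sham 2 (FDR = 0.122), aged sham 3 (FDR = 0.123), or aged bleo 5 (FDR = 0.103).

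Des (ENSMUSG00000026208, chromosome 1, 75360329 to 75368579, plus strand) encodes desmin, the muscle intermediate filament. It was at 245, 222, 309, and 157 CPM in aged sham and at 316, 278, 325, 286, and 331 CPM in aged bleo. The highest aged sham library, aged sham 3, overlapped with aged bleo, and the other 3 lay below it. The mean was 233 ± 63.1 against 307 ± 23.8 CPM (log2 fold change 0.40, SE 0.17, edgeR FDR = 0.0987), and the fold size of 1.32 did not pass the threshold.

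The 10 genes varied together among the aged sham libraries. Aged sham 3 had the highest value for 9 of 10 genes, with Myl9 highest in aged sham 2, and aged sham 4 had the lowest value for 10 of 10. The highest aged sham library exceeded the lowest by 1.61-fold for Tpm1 to 2.34-fold for Cnn1. Aged bleo libraries had no such shared order. Aged bleo 5 was highest for 6 genes, aged bleo 2 for 3, and aged bleo 1 for 1, while aged bleo 4 was lowest for 7 and aged bleo 2 for 3. Within aged bleo, Des, Tagln, and Acta2 varied little (highest over lowest 1.19, 1.21, and 1.27), and Myh11 and Lmod1 varied most (4.65 and 3.54). The Acta2 level thus hardly separated aged bleo libraries between which the Myh11 level differed by over 4 times. That spread of Myh11 rests on aged bleo 4 (213 CPM), as the other aged bleo libraries were at 479 to 990 CPM.

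Aged sham 4 and aged bleo 4, the libraries with most of the lowest values, were also those with the highest summed leukocyte genes. Without both, 5 of the 10 genes were called lower, Acta2 among them (log2 fold change -0.69, edgeR FDR = 0.0458), and Tpm1 was called higher. Over all genes tested, 3596 were called in either direction without both libraries, against 4022 with all libraries. In that fit Myh11 was at -1.11 (FDR = 0.0144), Cnn1 at -1.03, Lmod1 at -0.90, and Myl9 at -0.66 on the log2 scale. In the libraries kept, the sum of 6 macrophage markers was 130 to 185 CPM in aged sham and 434 to 795 CPM in aged bleo. The part of leukocytes in these changes was not tested. Among only the 5 libraries whose deposited names end in 4, aged bleo 4 was the lone aged bleo library, so only effect sizes are given. That library had the lowest Myh11 and Lmod1 of all libraries. Log2 fold changes in this fit, which assumes that it varies like the aged sham libraries, were -2.67 for Myh11, -2.23 for Lmod1, -1.52 for Cnn1, -0.97 for Myl9, and 1.08 for Tpm1.

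The composition of each protein family was then compared within libraries, which does not depend on the scaling between libraries. Of the FPKM of 4 myosin II heavy chain genes (Myh9, Myh10, Myh11, and Myh14), Myh11 made up 67.5%, 71.1%, 75.1%, and 62.2% in aged sham 1 to 4. In aged bleo 1 to 5 it made up 48.8%, 55.3%, 42.6%, 21.0%, and 35.2%. All aged bleo libraries were below all aged sham libraries, with means of 69.0 ± 5.51% and 40.6 ± 13.2%. The difference of -28.4 percentage points had p = 0.0159 in a two-sided exact permutation test over 126 splits, the smallest p that 4 against 5 libraries allow, and an adjusted p of 0.0476 over 3 families. Non-muscle myosin Myh9 took the larger part of the difference, with 12.2 ± 2.81% of the family in aged sham and 36.5 ± 13.5% in aged bleo, while Myh10 was at 18.6 ± 3.06% and 22.9 ± 1.02%.

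Among 6 actin genes, the smooth muscle actins Acta2 and Actg2 together made up 46.4%, 53.4%, 58.7%, and 42.1% of the FPKM in aged sham and 44.8%, 44.2%, 41.1%, 32.7%, and 42.6% in aged bleo. The groups overlapped, with means of 50.1 ± 7.39% and 41.1 ± 4.93% (two-sided exact permutation test, p = 0.0794, adjusted p = 0.119). Acta2 alone was at 46.7 ± 6.86% and 37.5 ± 4.40%, and the cytoplasmic actin Actb at 32.7 ± 4.94% and 39.1 ± 3.61%.

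Among the 4 tropomyosin genes, Tpm1 and Tpm2 together made up 42.7 ± 7.24% in aged sham and 37.9 ± 3.05% in aged bleo (two-sided exact permutation test, p = 0.238, adjusted p = 0.238). With counts in place of FPKM, the difference turned from -4.77 to 1.06 percentage points. The parts of the combined share differed, as Tpm1 was at 15.1 ± 1.86% and 19.7 ± 1.13% and Tpm2 at 27.6 ± 5.40% and 18.3 ± 2.14%. The level of Tpm2 itself hardly differed (43.6 and 42.5 FPKM), whereas Tpm1 (23.6 and 46.4 FPKM) and Tpm4 (71.6 and 132 FPKM) were higher in aged bleo. In FPKM, non-muscle Tpm4 was the largest part in both groups, with 46.5 ± 6.49% and 55.0 ± 3.24%. In CPM, which is not scaled to length, Tpm1 was at 697 and Tpm4 at 672 in aged bleo.

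**Figure D3:**
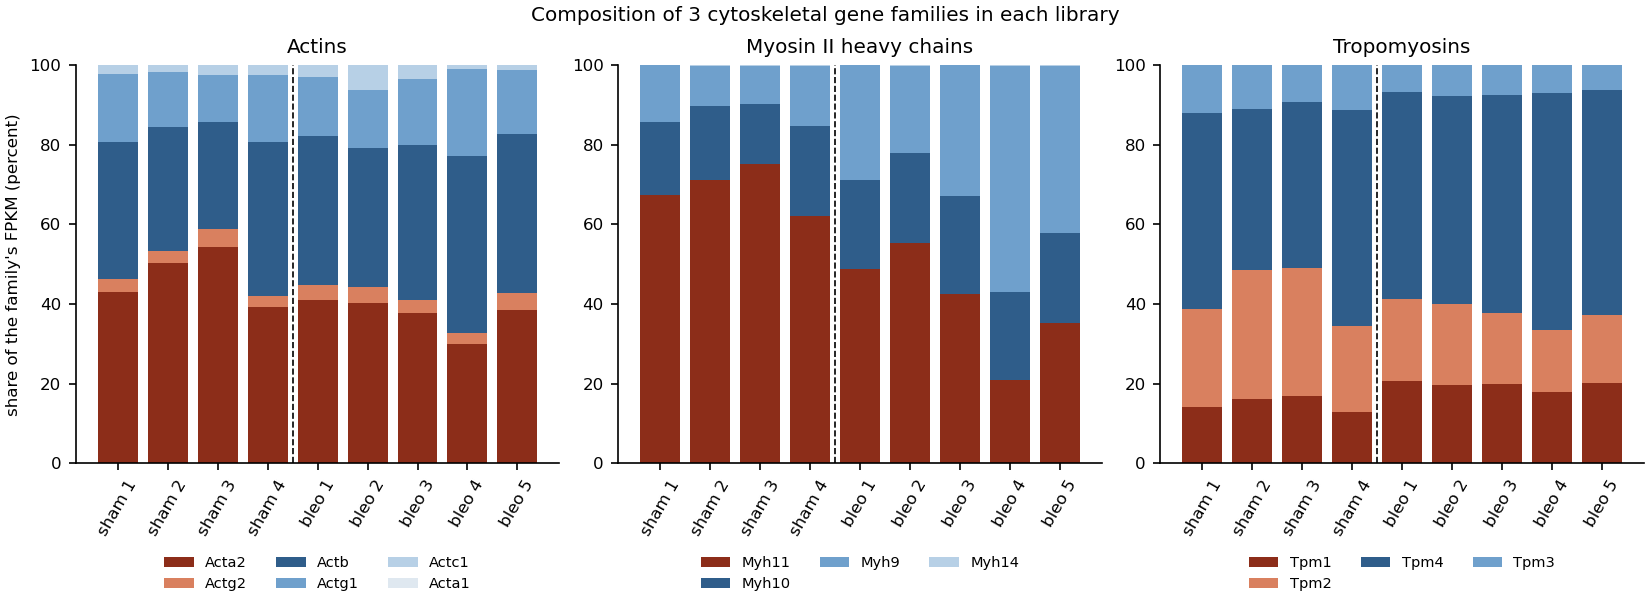
Share of each gene in the summed FPKM (percent) of 6 actin, 4 myosin II heavy chain, and 4 tropomyosin genes, with 1 bar per library and a dashed line between the 4 aged sham and 5 aged bleo libraries. Dark red and orange are contractile genes described here, and blue tones are their paralogs. The Myh11 share is 62.2% to 75.1% in aged sham and 21.0% to 55.3% in aged bleo.

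Ratios between the genes, taken within each library from FPKM and given without a test, separated the groups in several cases. Tpm1 over Tpm2 was between 0.503 and 0.597 in aged sham and between 0.969 and 1.18 in aged bleo. Relative to Acta2, the ratios of Tpm1, Des, Actg2, and Tpm2 lay above the whole aged sham range in all 5 aged bleo libraries. The largest of these shifts was that of Tpm1 over Acta2, from between 0.0495 and 0.0674 to between 0.114 and 0.201. For Tpm2 over Acta2 the groups almost met, with at most 0.1167 in aged sham and at least 0.1173 in aged bleo. Cnn1 over Acta2 was lower in every aged bleo library, at 0.0446 to 0.0695 against 0.0699 to 0.0819, although the nearest libraries almost met. The ratios of Myh11, Lmod1, Myl9, and Tagln to Acta2 overlapped between the groups. Myh11 over its non-muscle paralog Myh9 was between 4.14 and 7.82 in aged sham and between 0.370 and 2.52 in aged bleo. Acta2 exceeded Col1a1 in FPKM in every aged sham library, with ratios of 1.04 to 2.56, and in none of the aged bleo libraries, with ratios of 0.157 to 0.338.

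Other genes of the contractile apparatus moved in both directions. Of 16 partner genes, 4 rose, 4 fell, and 8 were not called, with a median log2 fold change of -0.16, where 12.3% of all genes tested were higher and 11.5% lower. Mylk, the kinase that phosphorylates the myosin light chain, rose from 415 ± 103 to 714 ± 90.1 CPM (log2 fold change 0.78, edgeR FDR = 0.0103), with every aged bleo library above every aged sham library. Cald1 (caldesmon, 0.63), Fhl2 (a LIM domain protein, 0.72), and Nexn (nexilin, an actin-binding protein, 0.60) were the others that rose. Pdlim3 (a PDZ and LIM domain protein of muscle, -1.34), Synpo2 (myopodin, -1.29), Synm (the intermediate filament protein synemin, -0.93), and Ppp1r12b (a subunit of myosin phosphatase, -0.67) fell. Pdlim3 and Synpo2 were lower in every aged bleo library than in every aged sham library. Over all genes tested, 16.1% lay lower in this way, and 16.1% lay higher in every aged bleo library, as Mylk did. Mylk, Fhl2, Pdlim3, and Synpo2 were called with any 1 of the 9 libraries left out. The calls of Cald1 (without aged bleo 5 or aged sham 4), Nexn (aged bleo 1, aged bleo 5, aged sham 1, or aged sham 4), Synm (aged bleo 5, aged sham 1, or aged sham 2), and Ppp1r12b (aged bleo 4, aged bleo 5, aged sham 2, or aged sham 3) were lost. Without aged bleo 5 only 2 partner genes were higher and 2 lower.

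Of 9 transcription factors and coactivators that regulate these genes, 1 rose, 2 fell, and 6 were not called. For comparison, 12.3% of all genes tested were called higher and 11.5% lower. Klf4, which represses smooth muscle genes in other settings, fell from 758 ± 99.4 to 262 ± 111 CPM (log2 fold change -1.53, edgeR FDR = 0.00626). Gata6 was at 80.7 ± 2.12 and 41.2 ± 17.0 CPM (-0.97, FDR = 0.0261) and fell as well. Klf5 rose from 1.95 ± 0.170 to 4.41 ± 0.937 CPM (1.17, FDR = 0.00187). SRF itself was at 119 ± 12.5 and 97.4 ± 13.2 CPM (-0.29, FDR = 0.0706) and its coactivator myocardin (Myocd) at 22.6 ± 5.79 and 23.1 ± 3.49 CPM (0.036, FDR = 0.896), and neither was called.

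Of 15 genes that set contractile tone, 4 rose, 1 fell, and 10 were not called, where 12.3% of all genes tested were higher and 11.5% lower. Cacna1c, the pore of the L-type calcium channel, rose from 52.4 ± 7.59 to 114 ± 17.1 CPM (log2 fold change 1.12, edgeR FDR = 0.000628). Every aged bleo library was above every aged sham library for Cacna1c, as for 16.1% of all genes tested. Pde5a (0.71), a phosphodiesterase that degrades cyclic GMP, and Gucy1a3 (0.85), a subunit of the nitric oxide receptor that makes it, rose too. Other genes of the list that act through cyclic GMP were not called, namely the partner subunit Gucy1b3 (0.21, FDR = 0.464), the kinase Prkg1 (0.48, FDR = 0.0240), and its substrate Mrvi1 (-0.21, FDR = 0.517). Pln (phospholamban, 1.37) was low, at 1.68 ± 0.422 and 4.33 ± 1.63 CPM. Kcnmb1, the beta subunit of the smooth muscle BK potassium channel, fell from 28.2 ± 8.66 to 14.5 ± 5.05 CPM (-0.96, FDR = 0.0379), and its call was lost without aged sham 3. The 4 higher calls were made with any 1 library left out.

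The non-muscle and striated paralogs of the 10 genes numbered 22, of which 18 had enough counts to be tested. Myh9 (1.08), Tpm4 (0.83), and Cnn2 (0.83) rose, each with every aged bleo library above every aged sham library. Among all genes tested, 16.1% were separated in that way, 12.3% were called higher, and 11.5% lower. Tmod2 (-1.98), Myh14 (-1.84), and Tmod4 (-0.62) fell, the latter pair at under 5 CPM in every library. The call of Tmod4 was lost in 7 of 9 fits with 1 library left out, all but those without aged bleo 1 or aged bleo 2. The median log2 fold change was 0.029. The non-muscle genes Myh9 and Cnn2 thus moved in the opposite direction to their smooth muscle paralogs Myh11 and Cnn1, whereas Tpm4 and Tpm1 moved the same way. Other non-muscle paralogs were not called, among them Myh10 (-0.11), Actb (0.074), Actg1 (-0.0076), Tpm3 (-0.059), Cnn3 (0.50), and Tagln2 (0.34). Myl12a (0.41) and Myl12b (-0.34), paralogs of Myl9, were not called and differed in direction.

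**Figure D4:**
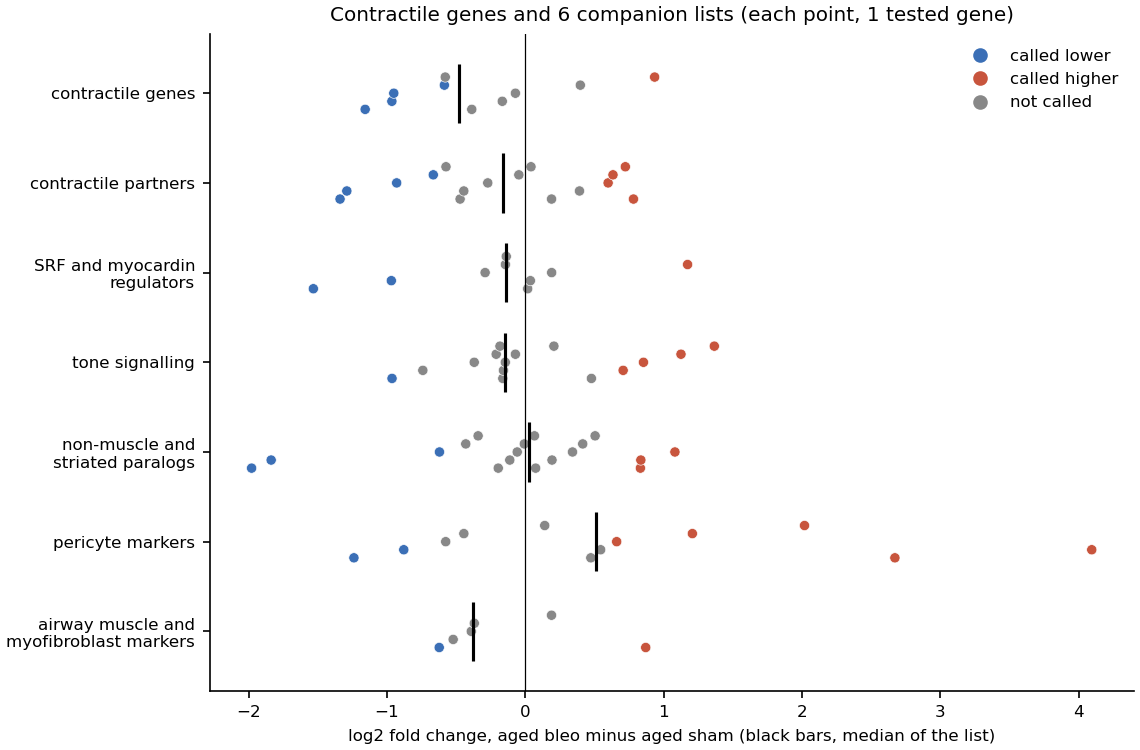
Log2 fold change, aged bleo minus aged sham, of each tested gene of the 10 contractile genes and of 6 companion lists. Red points were called higher, blue points lower, and grey points were not called, and black bars mark the median of each list. Called genes lie on both sides of 0 in every list, and the medians run from -0.48 for the contractile genes to 0.51 for the pericyte markers.

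Markers of other contractile cells that the sort could hold moved unevenly, where 12.3% of all genes tested were called higher and 11.5% lower. Of 12 pericyte markers, 5 rose, 2 fell, and 5 were not called, and their summed level was 1417 to 1751 CPM in aged sham and 1028 to 1836 CPM in aged bleo. Trpc6 (4.09), Higd1b (2.67), and Cox4i2 (2.02) rose from under 1 CPM in every aged sham library, and the receptors Notch3 (1.21) and Pdgfrb (0.66) rose from higher levels. Abcc9 (-1.24) and Kcnj8 (-0.88), which encode the subunits of the vascular KATP channel, fell, and the call of Kcnj8 was lost without aged bleo 5, aged sham 2, or aged sham 3. Of 6 markers of airway smooth muscle and alveolar myofibroblasts, Npnt rose (0.87, edgeR FDR = 0.0469), Mustn1 fell (-0.62, FDR = 0.0783), and Lgr6 (-0.52), Itga8 (-0.39), Aspn (-0.37), and Hhip (0.19) were not called. The call of Npnt was lost without aged sham 1 or aged sham 4, and that of Mustn1 without aged bleo 3, aged bleo 4, aged bleo 5, aged sham 2, or aged sham 3. Their summed level was 1027 to 1548 CPM in aged sham and 685 to 1684 CPM in aged bleo, and aged bleo 4 was lowest for both lists.

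Other marker lists were read beside these values, again against 12.3% of all genes tested called higher and 11.5% lower. The 3 markers of activated fibroblasts, Cthrc1, Postn, and Tnc, rose, and their sum went from between 234 and 389 CPM to between 2245 and 4614 CPM, while Acta2 did not rise. Of 7 fibroblast identity genes, 3 rose and 2 fell, with sums of 24503 to 30252 and 54419 to 71851 CPM. The sum of 6 macrophage markers was 130 to 245 CPM in aged sham and 434 to 1376 CPM in aged bleo, and 4 of them rose. Neutrophil markers (150 to 923 and 69.9 to 819 CPM) and mesothelial markers (23.8 to 73.8 and 28.8 to 112 CPM) had no called gene. Endothelial markers (10.3 to 14.2 and 10.9 to 16.9 CPM), epithelial markers (8.19 to 80.1 and 14.8 to 51.2 CPM), leukocyte markers, and cardiomyocyte markers (27.1 to 39.1 and 20.8 to 35.7 CPM) had 1 called gene each. The part of these cell types in the results was not tested.

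Across the 9 libraries, the genes with levels most like Acta2 by Pearson's r of log2 CPM were Ilk (0.96), Hspb6 (0.96), Igkv13-84 (0.94), Bag2 (0.94), and Fbxl22 (0.93). Igkv13-84 is an immunoglobulin segment with 567 and 256 counts in aged sham 2 and 3 and at most 3 counts in the other libraries, so its likeness rests on the pair of libraries with the highest Acta2. The genes most like Myh11 were Adcy5, Synpo2, Xk, Npy1r, and Myom1, with r from 0.991 to 0.995. All 5 were called lower, as were 11.5% of all genes tested, with log2 fold changes between -1.34 and -0.95. They were picked for their likeness to Myh11, itself called lower, so their calls are not a separate result. With the group means taken out, r was 0.878 to 0.946 for the genes like Acta2 and 0.985 to 0.993 for those like Myh11. These values are descriptions, since the libraries also share the difference between the groups.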

How the data were processed

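Bulk RNA-Seq libraries of sorted lung fibroblasts were grouped by their sample labels into 4 aged sham and 5 aged bleo libraries. The authors deposited read counts per gene, as whole numbers with no normalization, along with FPKM values, which the authors scaled by gene length and by a total of 2.27 to 2.42 times the counts summed per library. Submitters' processing notes name STAR 2.5.2b, featureCounts (Subread), and the mouse build GRCm38 (mm10). Of the identifiers shared with GENCODE M21, 78.9% have the same positions there. Libraries were made from polyadenylated RNA with a kit that does not mark strand, and the strand setting of the counting is not given in the sources used here.

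Genes with a mean count of at least 25 were tested (16877 of 43346). The main test was edgeR 4.0.16 (glmQLFit, glmQLFTest) on TMM-normalized counts in R 4.3.3 without covariates, where the study used a moderated test with the same filter and thresholds. The standard error of a log2 fold change was derived from that value and its test statistic. TMM also scales the CPM values, whose log2 form adds a prior count of 2. Shares of a family's FPKM were compared by two-sided exact permutation tests. The alternatives were DESeq2 1.42.0, limma 3.58.1 (trend and voom, and on log2(FPKM + 0.1) and log2(FPKM + 1)), RLE and library-size normalization, other filters and thresholds, libraries left out, and replicate numbers as a block. Within each group, no libraries were duplicates, with a chi-square per degree of freedom of 26.5 to 378 between their counts. P-values measure the spread between these libraries, which the study describes as independent mice.

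The 10 genes and the 15 companion and marker lists were chosen with earlier results of these data known. The named genes are the 10 genes, up to 5 called genes with the lowest FDR of each companion list, all genes of lists of 6 or fewer among the companion lists, the genes of the sort markers, and the 5 genes most correlated with Acta2 and with Myh11. The most and least abundant genes of the other marker lists were left out where no result turned on them. Synm, Ppp1r12b, Srf, Myocd, Gucy1b3, Prkg1, Mrvi1, Tmod4, Actg1, Tpm3, Cnn3, Tagln2, Myl12a, Myl12b, Abcc9, Kcnj8, Cthrc1, Postn, and Tnc were named after their values were seen. Promoters were read from RefSeq sequences of GRCm38.p6.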

Additional observations from a re-analysis of the deposited data

How the results depend on the processing

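Of 608 values recomputed under the alternatives, 513 stayed on their side of the threshold or within their margin, and 5 turned direction. The number of genes called, 4022, was 1785 with log2(FPKM + 1), 6177 with only the libraries whose names end in 4, 2158 at the stricter thresholds (FDR under 0.05, fold over 2), and between 3525 and 4597 with single libraries left out. At these thresholds, 1 of the 10 genes was called lower (Myh11) and 0 higher (4 lower and 1 higher at the main thresholds), and 14 genes of the 6 companion lists were called, since Cnn1 (-0.96), Lmod1 (-0.95), Myl9 (-0.59), and Tpm1 (0.93) are under that fold. With single libraries left out, 1 to 5 of the 10 genes were called lower, 1 without aged sham 3 and 2 without aged sham 2. Acta2 was called lower with DESeq2 and with RLE normalization (-0.59 in both) and without aged sham 4 and aged bleo 4 (-0.69), and its log2 fold change was between -0.72 and -0.37 with single libraries left out. Myl9 was not called with library-size normalization (-0.58), at least 10 counts in every library (-0.58), no filter (-0.57), limma-trend on CPM (-0.56), voom (-0.55), log2(FPKM + 0.1) (-0.52), or log2(FPKM + 1) (-0.52), and was between -0.73 and -0.46 with single libraries left out. The corresponding ranges were -1.39 to -0.95 for Myh11, -1.12 to -0.76 for Lmod1, -1.12 to -0.68 for Cnn1, 0.82 to 1.07 for Tpm1, -0.31 to 0.12 for Actg2, and -0.21 to 0.083 for Tpm2. Tpm2 turned to 0.016 with only the libraries whose deposited names end in 4, 0.0092 without aged sham 2, and 0.083 without aged sham 3. Actg2 turned to 0.12 without aged sham 3. The Tpm1 and Tpm2 share turned to 1.06 percentage points with counts. The Myh11 share differed by -25.8 percentage points without aged sham 4 and aged bleo 4 (exact permutation p = 0.0571, the smallest that the remaining libraries allow). With single libraries left out it differed by -32.1 to -23.5, and the adjusted p did not pass 0.05. With the fewer libraries, passing would also have required low p-values in the other families. The causes of these changes were not tested, apart from the fold thresholds and the smaller numbers of libraries.

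The replicate numbers are not stated to pair mice, and the deviations of same-numbered libraries correlated at 0.042, 0.086, -0.14, and 0.38, so the numbers were not taken as pairs. With the replicate number as a block, 3536 genes were called, with 3 of the 10 genes lower and 1 higher, Myl9 not called (-0.57), and a Myh11 share difference of -27.0 percentage points (exact permutation p = 0.125, the smallest that 4 pairs allow).

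With 4 and 5 libraries, the spread between mice limits what can be said of genes such as Tagln, Actg2, and Tpm2. The depth was ample for all 10 genes, with mean counts of at least 4572. Whether a value comes from smooth muscle cells, pericytes, or fibroblasts within the sort was not tested.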
